A study of Mus musculus with 6 samples.

Results

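The genes described here encode 39 proteins of the lysosome: 8 peptidases, 14 glycosidases and sulfatases, 9 enzymes and carriers of lipids, 6 membrane proteins and 2 regulators. They were chosen by name, as a list of known lysosomal genes matched to the gene symbols of the deposited tables. Earlier results of these data were known when the list was made. All 39 of the genes had a row among 25241 genes. In the pathway annotation deposited with the tables, 36 of the 39 carry the KEGG term Lysosome. RNA sequencing libraries were made from primary neural stem cells of the mouse subgranular zone, a thin layer of the hippocampus in which neurons are born throughout life. All cultures were wild type and at passage 3. Of the 6 libraries, 3 came from cultures given 0.8 μM cadmium chloride (CdCl2) for 72 h and 3 from untreated control cultures. The labels call the replicates biological without saying whether they came from separate animals or platings. The p-values below set the difference between groups against the spread among these replicates, which may in part be technical.

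Lysosomes break down proteins, sugar chains and lipids that reach them by endocytosis, phagocytosis or autophagy, using hydrolases that work in an acidic lumen. Most of these enzymes are tagged with mannose phosphate and carried there by sorting receptors, while heavily glycosylated membrane proteins line the organelle, and ion channels and pumps control its content. Loss of many of the enzymes causes an inherited storage disease, often with damage to the brain. In the neural stem cells of adult mice, quiescent cells are known to hold large lysosomes. TFEB, a transcription factor of the MiT/TFE family, drives many lysosomal genes through a short palindromic promoter motif and is held in the cytoplasm by mTORC1 when nutrients are plentiful.

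To show the DNA at which that motif is sought, promoter windows of 3 of the genes are printed here. They run from 250 bases before to 50 bases after the transcription start and come from RefSeq on the build GRCm38.p6, whereas the counts were made on GRCm39. The letters are 5′ to 3′ on the strand of the gene, and capitals mark TCACGTGA. Ctsa, for the peptidase cathepsin A, is shown because 1 of its 2 windows in the table holds the motif in 2 places, with first bases at -13 and 5 relative to the start (chr2:164833523-164833822, plus strand). Ctsd, for cathepsin D, has it at 1 place, at -99 (chr7:142387778-142388077, minus strand), and Ctsd is among the most abundant of the 39 transcripts. Naaa, for a lipid amidase, is shown because it fell furthest, and its window does not hold these 8 letters (chr5:92278132-92278431, minus strand).
Ctsa: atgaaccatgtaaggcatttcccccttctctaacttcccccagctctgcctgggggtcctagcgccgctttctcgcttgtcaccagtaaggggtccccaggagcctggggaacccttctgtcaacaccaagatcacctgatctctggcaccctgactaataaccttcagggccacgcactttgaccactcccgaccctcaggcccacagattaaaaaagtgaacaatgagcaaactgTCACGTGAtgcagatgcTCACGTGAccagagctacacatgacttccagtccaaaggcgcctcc
Ctsd: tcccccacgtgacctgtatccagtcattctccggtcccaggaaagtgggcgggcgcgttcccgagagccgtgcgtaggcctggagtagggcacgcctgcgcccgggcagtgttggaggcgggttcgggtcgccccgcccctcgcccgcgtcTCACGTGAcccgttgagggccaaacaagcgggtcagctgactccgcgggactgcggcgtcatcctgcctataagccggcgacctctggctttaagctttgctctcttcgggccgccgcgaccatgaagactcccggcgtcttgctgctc
Naaa: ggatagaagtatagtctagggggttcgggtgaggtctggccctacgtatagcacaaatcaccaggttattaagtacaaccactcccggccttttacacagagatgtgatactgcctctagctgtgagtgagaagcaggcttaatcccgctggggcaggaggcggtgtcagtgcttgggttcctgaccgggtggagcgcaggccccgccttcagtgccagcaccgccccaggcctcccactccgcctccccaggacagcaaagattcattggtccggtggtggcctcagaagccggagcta

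After cadmium, transcripts of most of these lysosomal genes were lower, by small amounts. Of the 39, all of which passed the filter on low counts, 26 fell and 0 rose at an edgeR adjusted p below 0.05, and 13 did not pass. At an unadjusted p below 0.05, 0 of the 39 were higher, and DESeq2 also called 0 higher. Among the 14369 genes tested the fit called 22.4% lower and 23.1% higher. As the list was made with earlier results known, this contrast describes it and does not test it. The median log2 fold change, cadmium over control, was -0.21 for the 39 genes, with a range of -2.33 to 0.09, and -0.01 for all genes tested. In 25 of the 26 that fell the change was under 1.5-fold, and Naaa was the exception. All 3 cadmium libraries lay below all 3 control libraries for 29 of the 39, against 28.3% of all genes tested. They lay above all controls for 1 of the 39, against 28.0% of all genes tested. Reads of the 39 genes made up 0.811%, 0.800% and 0.802% of all counts in the cadmium libraries, against 0.913%, 0.920% and 0.977% in the control libraries. In bulk RNA, fewer cells of a type that is rich in lysosomes and less lysosomal RNA per cell cannot be told apart.

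**Figure D1:**
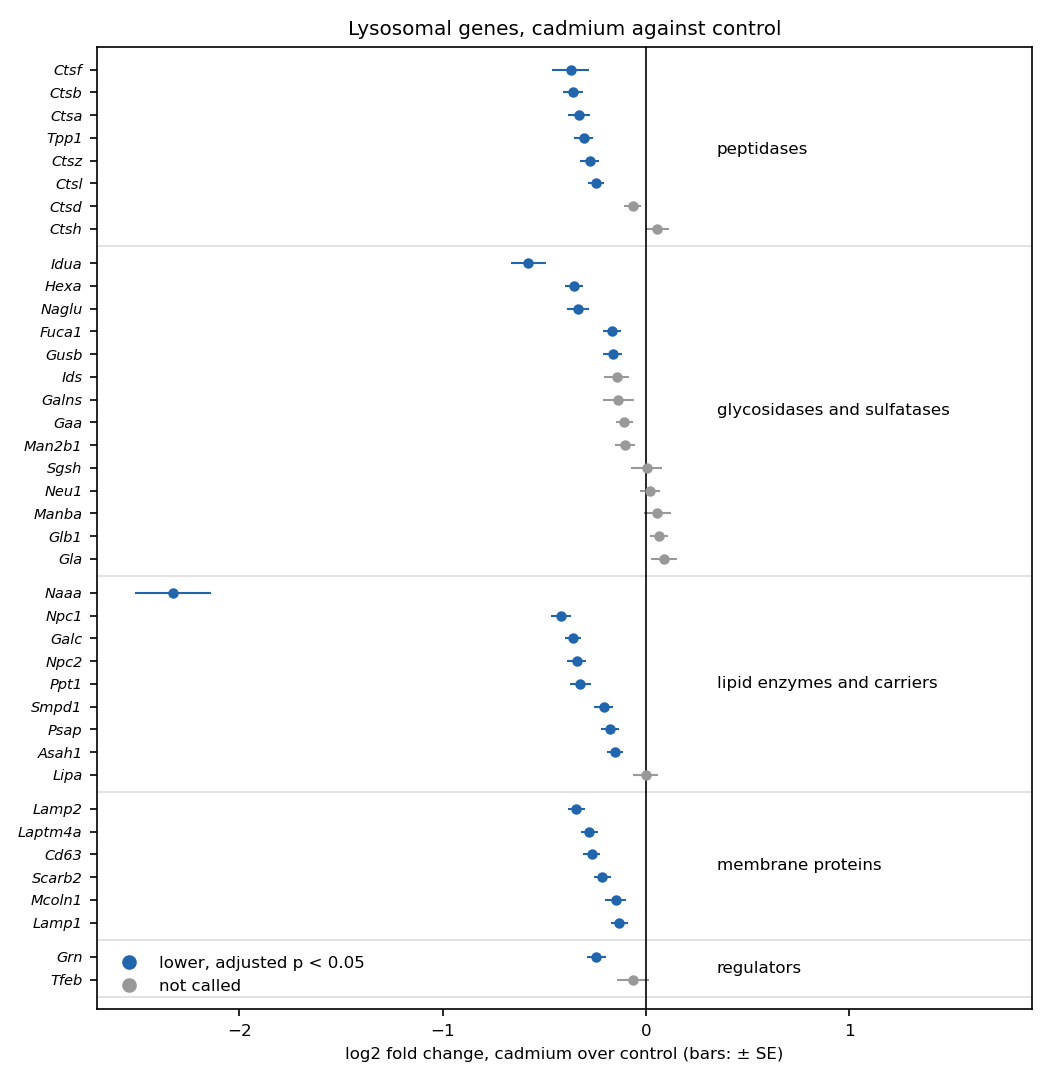
Log2 fold change of each of the 39 genes, cadmium over control, with bars of ± SE, grouped by class. Blue points passed an adjusted p of 0.05, all of them to the left of 0, and Naaa stands apart at -2.33.

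Library totals lay between 37710042 and 41523231 counts. As a check of the exposure, the metallothionein gene Mt1 averaged 1278 ± 18.3 CPM (counts scaled for library size) in cadmium and 562 ± 59.3 CPM in control libraries, and the heme oxygenase gene Hmox1 348 ± 7.42 and 93.5 ± 5.80 CPM (SD, n = 3 each). Control replicate 3 stood apart from the other controls, with a score of -36.9 on the first principal component, against -23.4 and -22.4 for control replicates 1 and 2. Of the 39 lysosomal genes, 29 were highest in it among the controls and 4 lowest, and their median log2 ratio to the mean of the other 2 controls was 0.10. Without it, 25 of the 39 fell, 0 rose and the median was -0.19.

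Many markers of astrocytes were lower after cadmium, as were some markers of several other cell types. Of 10 astrocyte markers, 9 fell and 1 rose (Slc1a3), against 22.4% lower and 23.1% higher among all genes tested. The astrocyte markers summed to 3290 to 3450 CPM in cadmium and 5750 to 6820 CPM in control libraries. Markers of neural stem cells summed to 6950 to 7140 CPM in cadmium and 6210 to 6510 CPM in control libraries, with 6 of 10 lower and 3 higher. Oligodendrocyte lineage markers summed to 3250 to 3430 CPM in cadmium and 3230 to 3380 CPM in control libraries, and neuronal markers to 617 to 702 and 692 to 731 CPM. Of 9 tested oligodendrocyte lineage markers 6 fell and 2 rose, and of 9 tested neuronal markers 2 fell and 0 rose. Of 12 microglial markers 8 had a row, and 7 of these stayed under 1 CPM in every library, with C1qc and Ptprc at 0. These 7 markers summed to 0.213 to 0.666 CPM in cadmium and 0.366 to 0.51 CPM in control libraries. Endothelial markers summed to 2.15 to 2.53 CPM in cadmium and 2.37 to 3.18 CPM in control libraries, and those of pericytes and fibroblasts to 1.4 to 1.68 and 3.59 to 3.9 CPM. Of 4 tested markers of pericytes and fibroblasts, 3 fell and 0 rose, all at low levels. The part of cell type content, of astrocytes or of other types, in the lysosomal values was not tested.

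Per transcript length, the most abundant of the 39 in both groups was Psap, at 502 ± 6.15 FPKM in cadmium and 570.4 ± 28.2 FPKM in control libraries (fragments scaled to transcript length and library size, SD, n = 3 each). Next came Ctsd, at 459 ± 4.79 FPKM in cadmium and 483 ± 24.6 FPKM in control libraries, a difference in level within the spread of the controls. Lamp1 followed at 385 ± 6.97 FPKM in cadmium and 423 ± 16.2 FPKM in control libraries, and Cd63 at 272 ± 1.03 and 329 ± 14.3 FPKM. These abundant transcripts encode a precursor of lipid activator proteins, an aspartic protease and a pair of membrane glycoproteins. Hexa, at 98.8 ± 2.40 FPKM in cadmium and 127 ± 4.79 FPKM in control libraries, had the next level in both groups, and Ctsb came after it. At the low end stood Idua, at 1.87 ± 0.0279 FPKM in cadmium and 2.81 ± 0.158 FPKM in control libraries, and Tfeb, at 2.12 ± 0.122 and 2.23 ± 0.1001 FPKM. Naaa was at 0.522 ± 0.0794 FPKM in cadmium and 2.63 ± 0.523 FPKM in control libraries. It ranked last of the 39 in cadmium libraries and above Tfeb in control libraries. The summed level of the 39 was 2901, 2873 and 2871 FPKM in the cadmium libraries, against 3226, 3265 and 3468 FPKM in the control libraries.

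**Figure D2:**
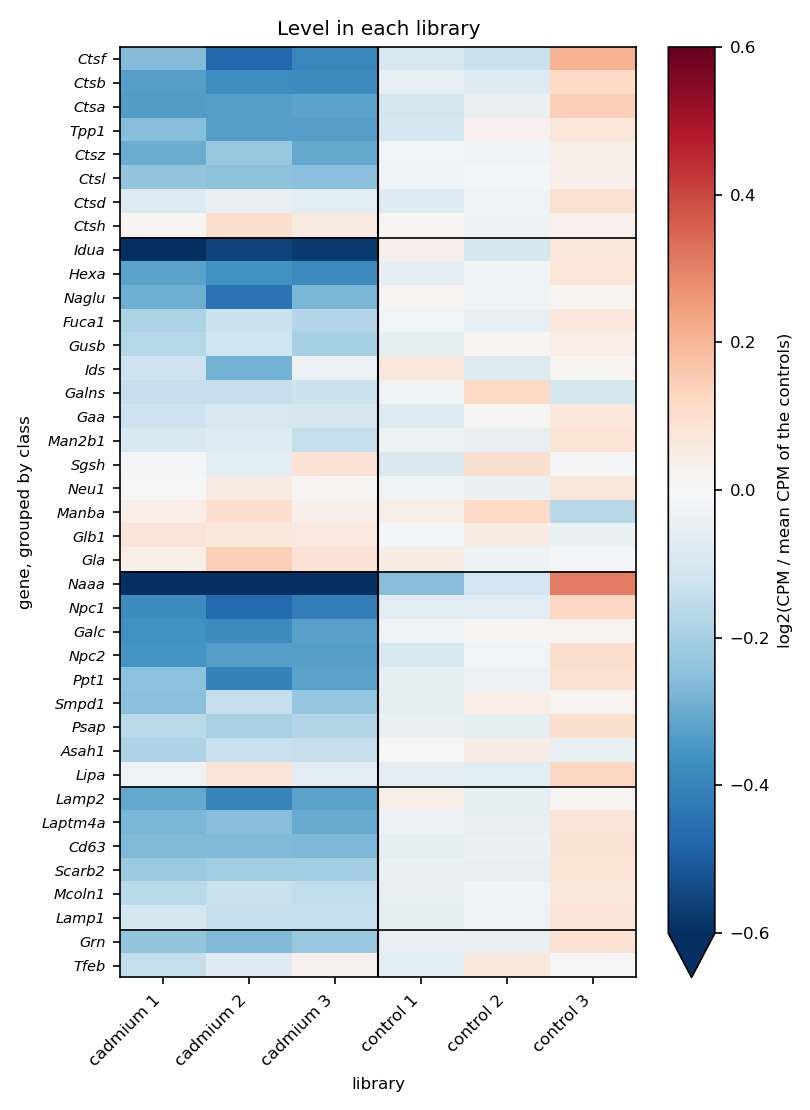
Level of each of the 39 genes in each library, as the log2 ratio of its CPM to the mean CPM of the controls, with rows in the order of the plot of fold changes and values below -0.6 drawn as -0.6. Cadmium columns are blue for most genes, and 28 of the 39 have their highest value in control replicate 3.

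Among the peptidases, which cut proteins into peptides and amino acids, 6 of 8 fell and 0 rose. Of all genes tested, 22.4% fell and 23.1% rose. The median log2 fold change of the 8 peptidase genes was -0.29. Ctsb (Entrez 13030), for the cysteine protease cathepsin B, was at 467, 453 and 452 CPM in cadmium libraries, against 567, 556 and 638 CPM in control libraries. Every cadmium library lay below every control, and control replicate 3 was the highest. Its log2 fold change was -0.36 ± 0.05 (SE, edgeR adjusted p = 3.4e-05). Ctsl (13039), for the cysteine protease cathepsin L, was at 173, 171 and 171 CPM in cadmium libraries, against 201, 201 and 208 CPM in control libraries. The groups did not overlap, and the replicates of each group lay close together. The log2 fold change of Ctsl was -0.24 ± 0.04 (edgeR adjusted p = 0.00012). Ctsa (19025), whose promoter is printed above, was at 141, 141 and 142 CPM in cadmium libraries, against 165, 172 and 196 CPM in control libraries. Cadmium libraries were nearly level, while the controls spread over a wider range without reaching them. This gave a log2 fold change of -0.33 ± 0.06 (edgeR adjusted p = 0.00025).

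Ctsd (13033), for the aspartic protease cathepsin D, was at 872, 894 and 884 CPM in cadmium libraries, against 875, 912 and 985 CPM in control libraries. Its groups overlapped, and 1 control lay among the cadmium libraries, with a log2 fold change of -0.07 ± 0.04 (edgeR adjusted p = 0.24). The next peptidase genes fell by similar steps. They were Ctsf, for cathepsin F, at -0.37 ± 0.09 (edgeR adjusted p = 0.004), Tpp1, for a tripeptidyl peptidase, at -0.31 ± 0.05 (0.00013), and Ctsz, for the carboxypeptidase cathepsin Z, at -0.28 ± 0.05 (0.00027). Ctsh, for the aminopeptidase cathepsin H, averaged 27.8 ± 0.808 CPM in cadmium and 26.8 ± 0.529 CPM in control libraries, with a log2 fold change of 0.05 ± 0.06 (edgeR adjusted p = 0.49).

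The glycosidases and sulfatases, which take sugar chains apart from their ends, were mixed. Of 14, 5 fell (35.7%) and 0 rose, against 22.4% lower and 23.1% higher among all genes tested. The other 9 did not pass, and the median log2 fold change of the 14 was -0.12. Hexa (15211), for the alpha subunit of beta-hexosaminidase that degrades gangliosides, was at 197, 191 and 189 CPM in cadmium libraries, against 237, 242 and 259 CPM in control libraries. The groups were well apart, with a log2 fold change of -0.35 ± 0.04 (edgeR adjusted p = 1.4e-05). Idua (15932), for the iduronidase that acts on heparan and dermatan sulfate, was at 8.73, 9.03 and 8.93 CPM in cadmium libraries, against 13.6, 12.4 and 13.9 CPM in control libraries. All 3 cadmium libraries were within a narrow band below the controls. The log2 fold change of Idua was -0.58 ± 0.09 (edgeR adjusted p = 9e-05), second in size to that of Naaa.

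Heparan sulfate is degraded by a chain of such enzymes, and only some of its genes passed. Besides Idua, Naglu, for an acetylglucosaminidase, fell, with 44.3 ± 2.75 CPM in cadmium and 55.9 ± 0.806 CPM in control libraries (log2 fold change -0.33 ± 0.06, edgeR adjusted p = 0.00019). Gusb, for beta-glucuronidase, fell by 0.16 ± 0.05 on the log2 scale (edgeR adjusted p = 0.0098), and that call was lost without cadmium replicate 3 (0.064, range over its alternatives 0.0069 to 0.064). Ids, for a sulfatase of the same chain, had a log2 fold change of -0.14 ± 0.06 (edgeR adjusted p = 0.067). It passed without cadmium replicate 3 (0.021) or control replicate 2 (0.038), under upper-quartile scaling (0.045) and with no count filter (0.036), in a range over its alternatives of 0.021 to 0.3. Sgsh, for the sulfatase that acts on sulfated glucosamine, was at 17.5, 16.9 and 18.8 CPM in cadmium libraries, against 16.6, 18.9 and 17.5 CPM in control libraries (log2 fold change 0.00 ± 0.08, edgeR adjusted p = 0.97). The groups lay on top of each other. Outside the 39, genes of further steps were picked after their values were seen. Hgsnat, for an acetyltransferase, was at 0.03 ± 0.05 (edgeR adjusted p = 0.65). Arsg, for the sulfatase of a rarer sulfate group on the chain, fell by 0.70 ± 0.12 on the log2 scale (edgeR adjusted p = 0.00031).

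Of the other glycosidase genes, only Fuca1, for an alpha-fucosidase, fell (log2 fold change -0.17 ± 0.04, edgeR adjusted p = 0.0073). Gaa, for the alpha-glucosidase that degrades glycogen, was at -0.11 ± 0.04 (edgeR adjusted p = 0.054). It passed without control replicate 1 (0.015), under upper-quartile scaling (0.040), with a stricter filter of 5 CPM (0.035), and for filtered FPKM values with 1 (0.047) or 0.1 (0.046) added before the log, in a range over its alternatives of 0.015 to 0.16. Man2b1, for an alpha-mannosidase, was at -0.10 ± 0.05 (edgeR adjusted p = 0.099), and Galns, for a sulfatase of keratan sulfate, at -0.13 ± 0.08 (0.16). In Gaa, Man2b1 and Galns every cadmium library lay below every control, although none of these genes passed the test. Gla, for alpha-galactosidase, was at 0.09 ± 0.06 (edgeR adjusted p = 0.28) and Manba, for a beta-mannosidase, at 0.06 ± 0.07 (0.52). Neu1, for the sialidase of the lysosome, was at 58.9, 61.3 and 59.3 CPM in cadmium libraries, against 58.0, 57.4 and 61.9 CPM in control libraries (log2 fold change 0.02 ± 0.05, edgeR adjusted p = 0.78). These values overlapped. Glb1, for the beta-galactosidase that acts on gangliosides, was at 88.7, 87.6 and 87.3 CPM in cadmium libraries, against 83.6, 86.5 and 81.7 CPM in control libraries. It was the 1 gene of the 39 with all cadmium libraries above all controls, by a margin that did not pass (log2 fold change 0.07 ± 0.04, edgeR adjusted p = 0.24).

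Genes that handle lipids fell in 8 of 9 cases (88.9%) and rose in 0, against 22.4% lower and 23.1% higher among all genes tested. The median log2 fold change of the 9 was -0.32. Naaa (67111), for the amidase that hydrolyses palmitoylethanolamide and other fatty acid ethanolamides, had 48, 56 and 46 reads in cadmium libraries, against 219, 246 and 324 reads in control libraries. That was 1.18, 1.49 and 1.13 CPM in cadmium libraries, against 5.34, 5.88 and 7.87 CPM in control libraries. Every cadmium library was far below every control, and the spread among controls was smaller than the gap between groups. The mean was 5.02-fold lower after cadmium, and the log2 fold change was -2.33 ± 0.19 (edgeR adjusted p = 5.1e-07). It was -2.15 without control replicate 3 and -1.25 on log2(FPKM + 1), where the added 1 is large beside these low levels.

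Galc (14420), for the galactosylceramidase that degrades a lipid of myelin, was at 123, 121 and 126 CPM in cadmium libraries, against 155, 159 and 159.9 CPM in control libraries. Both groups were tight and apart. Cadmium over control, the log2 fold change was -0.36 ± 0.04, with the smallest edgeR adjusted p among the genes of this class after Naaa (7.3e-06). Psap (19156), for prosaposin, the precursor of the saposins that present lipids to their hydrolases, was at 1410.3, 1381 and 1399 CPM in cadmium libraries, against 1530.1, 1518 and 1686 CPM in control libraries. The groups did not overlap, and control replicate 3 was the highest. The log2 fold change of Psap was -0.18 ± 0.04 (edgeR adjusted p = 0.0036).

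Both carriers that move cholesterol out of the lysosome fell. Npc1 (18145), which encodes the carrier in the membrane, was at 257, 242 and 249.98 CPM in cadmium libraries, against 318, 319 and 363 CPM in control libraries (log2 fold change -0.42 ± 0.05, edgeR adjusted p = 1.6e-05). Npc2 (67963), which encodes the carrier in the lumen, was at 295, 301 and 301 CPM in cadmium libraries, against 354, 373 and 406 CPM in control libraries (-0.34 ± 0.05, 4.2e-05). In both, the groups were apart and control replicate 3 was the highest. Ppt1, for a thioesterase that removes fatty acids from proteins, fell by 0.32 ± 0.05 on the log2 scale (edgeR adjusted p = 0.00017). Smpd1, for acid sphingomyelinase, fell by 0.21 ± 0.05 (edgeR adjusted p = 0.0018) and Asah1, for acid ceramidase, by 0.15 ± 0.04 (0.0051). Lipa, for the acid lipase of cholesteryl esters, averaged 46.9 ± 2.34 CPM in cadmium and 46.9 ± 3.61 CPM in control libraries (log2 fold change -0.00 ± 0.06, edgeR adjusted p = 0.99).

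All 6 membrane protein genes fell, against 22.4% lower and 23.1% higher among all genes tested. The median log2 fold change of the 6 was -0.24. Lamp2 (16784), for a glycoprotein of the lysosomal membrane that also serves in autophagy, was at 295, 277 and 292 CPM in cadmium libraries, against 375, 350.5 and 369 CPM in control libraries. The groups were apart, and here control replicate 1 was the highest. Its log2 fold change was -0.34 ± 0.04 (edgeR adjusted p = 1.4e-05). Laptm4a (17775), for a small transmembrane protein of endosomes and lysosomes, was at 361, 365 and 353 CPM in cadmium libraries, against 427, 421 and 459 CPM in control libraries. No cadmium library reached a control. The log2 fold change of Laptm4a was -0.28 ± 0.04 (edgeR adjusted p = 7.8e-05). Lamp1 (16783), for the other abundant membrane glycoprotein, was at 877, 852 and 854 CPM in cadmium libraries, against 905, 929 and 993 CPM in control libraries. Its groups were apart by a narrow gap, and its log2 fold change was -0.13 ± 0.04 (edgeR adjusted p = 0.017). The call was lost without cadmium replicate 2 (0.067) or without cadmium replicate 3 (0.084), with p from 0.008 to 0.084 over its alternatives.

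Cd63, for a tetraspanin of late endosomes, averaged 379 ± 0.559 CPM in cadmium and 456 ± 24.4 CPM in control libraries (log2 fold change -0.27 ± 0.04, edgeR adjusted p = 0.00013). Scarb2, for a membrane protein that also carries an enzyme to lysosomes, averaged 373 ± 1.605 CPM in cadmium and 432 ± 21.9 CPM in control libraries (-0.21 ± 0.04, 0.00071). Mcoln1 (94178), for a cation channel that releases calcium from lysosomes, was at 45.3, 46.2 and 45.9 CPM in cadmium libraries, against 49.1, 49.9 and 53.2 CPM in control libraries. It had the weakest call of the 26 that fell (log2 fold change -0.15 ± 0.05, edgeR adjusted p = 0.03). That call was lost without cadmium replicate 1 (0.092), cadmium replicate 2 (0.061), cadmium replicate 3 (0.091) or control replicate 3 (0.077), with no count filter (0.085) and in DESeq2 (0.056). The range over its alternatives was 0.014 to 0.092.

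Of the regulators, Grn (14824), for progranulin, a secreted and lysosomal glycoprotein that supports lysosomal function, was at 162, 158 and 163 CPM in cadmium libraries, against 184, 184 and 203 CPM in control libraries. Cadmium libraries lay below all controls. The log2 fold change of Grn was -0.24 ± 0.05 (edgeR adjusted p = 0.00053). Tfeb (21425) was at 15.2, 15.9 and 17.1 CPM in cadmium libraries, against 15.996, 17.5 and 16.8 CPM in control libraries. Its groups overlapped, and its log2 fold change was -0.06 ± 0.08 (edgeR adjusted p = 0.54). Transcript counts do not measure where the TFEB protein is or how active it is.

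**Figure D3:**
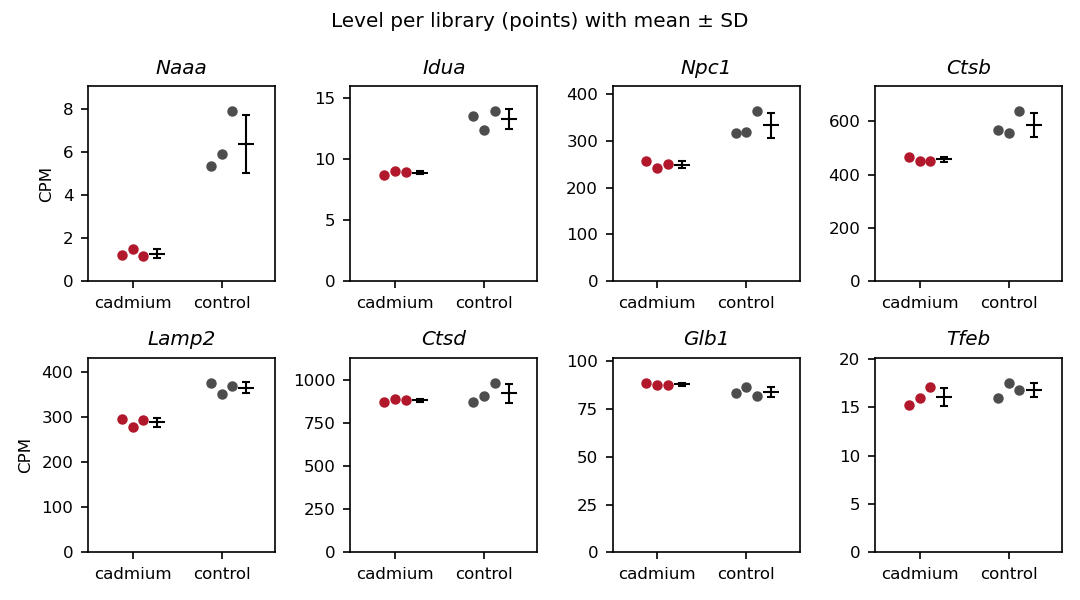
CPM per library of 8 of the genes, with cadmium at the left and control at the right of each panel, points for libraries and bars for the mean ± SD of 3. Naaa, Idua, Npc1, Ctsb and Lamp2 do not overlap between groups, Ctsd and Tfeb do, and in Glb1 all cadmium libraries lie above the controls.

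Some of these proteins work as partners, so ratios of their reads were compared within each library. Such a ratio does not depend on library scaling. The 4 pairs compared were picked after the values had been seen, and with 3 against 3 the smallest p an exact permutation test can give is 0.1. Cathepsin A holds beta-galactosidase and the sialidase in a common complex. The log2 ratio of Ctsa to Glb1 reads was 0.685 ± 0.0185 in cadmium and 1.08 ± 0.159 in control libraries (SD, n = 3 each, two-sided exact permutation p = 0.1, adjusted over 4 ratios 0.2). For Ctsa to Neu1 it was 1.24 ± 0.0316 in cadmium and 1.585 ± 0.0784 in control libraries (exact permutation p = 0.1, adjusted 0.2). Neither ratio overlapped between groups. For Ctsa to Glb1 this and the p of 0.1 were fixed by the single genes. All cadmium libraries lay below all controls in Ctsa and above them in Glb1. The differences of -0.39 and -0.35 were -0.30 and -0.31 without control replicate 3, a setting likewise added after the values were seen.

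The carriers Npc1 and Npc2 hand cholesterol on between them. For Npc1 to Npc2 the log2 ratio was -0.26 ± 0.0599 in cadmium and -0.18 ± 0.0392 in control libraries (exact permutation p = 0.2, adjusted 0.267, n = 3 each). The groups overlapped in this ratio.

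**Figure D4:**
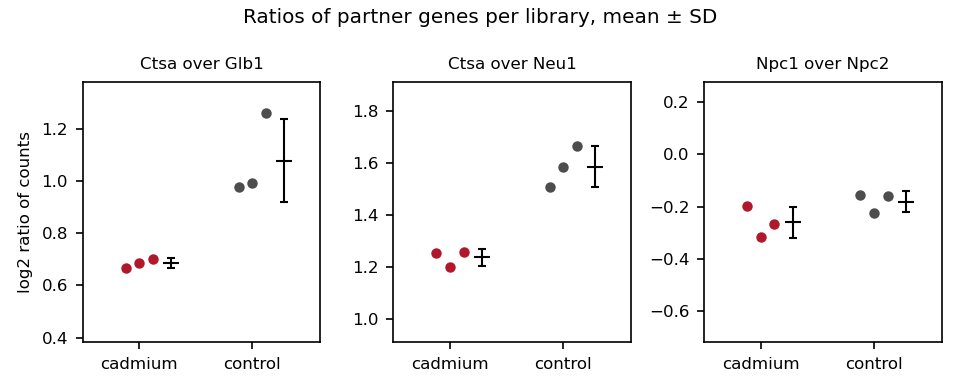
Log2 ratio of the reads of partner genes in each library, cadmium at the left and control at the right of each panel, with bars for the mean ± SD of 3. The ratios of Ctsa to Glb1 and to Neu1 do not overlap between groups, with cadmium below control, while that of Npc1 to Npc2 overlaps.

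Further lysosomal genes were read from lists of the pathway. Of 28 other hydrolases and their cofactors, 25 were tested. Of these, 14 fell (56.0%) and 0 rose, against 22.4% lower and 23.1% higher among all genes tested. The median log2 fold change of the 25 was -0.23. At an unadjusted p below 0.05, 1 of them was higher (Ppt2, picked after its value was seen), and DESeq2 called 0 higher. Ctso, for a cysteine cathepsin, averaged 29.3 ± 0.734 CPM in cadmium and 45.8 ± 2.27 CPM in control libraries (log2 fold change -0.64 ± 0.06, edgeR adjusted p = 1.2e-06). Gm2a, for the activator that presents a ganglioside to its hydrolase and picked after its value was seen, was at -0.53 ± 0.07 (edgeR adjusted p = 0.0001). Without control replicate 3, 1 gene of this list rose.

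Of 23 other membrane proteins of the lysosome 22 were tested, and 12 fell (54.5%) and 2 rose (9.09%). Among all genes tested, 22.4% fell and 23.1% rose. The median log2 fold change of this list was -0.17. Tpcn1, for a cation channel of endosomes and lysosomes, averaged 159.8 ± 5.09 CPM in cadmium and 267 ± 26.6 CPM in control libraries (log2 fold change -0.74 ± 0.06, edgeR adjusted p = 2e-06). Abca2, for a lipid transporter, fell by 0.39 ± 0.05 on the log2 scale (edgeR adjusted p = 1.2e-05). Against the direction of the list, Cd68, for a glycoprotein best known from macrophages and microglia, was at 1.80, 1.68 and 2.61 CPM in cadmium libraries, against 0.561, 0.741 and 0.802 CPM in control libraries. Its log2 fold change was 1.53 ± 0.27 (edgeR adjusted p = 0.0003), and 0.74 on log2(FPKM + 1). This rise stood beside microglial markers that were near 0 in both groups. Abcb9, for a peptide transporter, rose by 0.26 ± 0.09 (edgeR adjusted p = 0.029). Its call was lost without cadmium replicate 2, cadmium replicate 3, control replicate 1 or control replicate 3 (highest p 0.094, range over its alternatives 0.028 to 0.094).

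Of 18 genes of the vacuolar proton pump, which acidifies the lysosome, 5 fell (27.8%) and 1 rose (5.56%). Among all genes tested, 22.4% fell and 23.1% rose. The median log2 fold change of the pump genes was -0.04. It was -0.02 without cadmium replicate 2 and -0.01 without control replicate 3. The number that fell was 2 without cadmium replicate 1, 2 or 3, and 3 without control replicate 3. Atp6v0e2 fell by 0.20 ± 0.05 on the log2 scale (edgeR adjusted p = 0.0033) and Atp6v0d1, for a subunit of the membrane sector, by 0.15 ± 0.05 (0.016). Atp6v1h, for a subunit of the catalytic sector, rose by 0.17 ± 0.05 (edgeR adjusted p = 0.011). The Atp6v0d1 call was lost without cadmium replicate 3 (0.08, range over its alternatives 0.0084 to 0.08). That of Atp6v1h did not hold without cadmium replicate 2 or without cadmium replicate 3, nor on unfiltered log2(FPKM + 1), with p between 0.001 and 0.066 over its alternatives.

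Of 18 tested genes that deliver enzymes to the lysosome, 2 fell (11.1%) and 3 rose (16.7%), against 22.4% and 23.1% of all genes tested. Their median log2 fold change was 0.04, and 0.02 without cadmium replicate 2. Igf2r, for the large mannose phosphate receptor, which also clears insulin-like growth factor, was at 110.4, 112 and 104 CPM in cadmium libraries, against 84.2, 79.7 and 74.9 CPM in control libraries. All cadmium libraries were above all controls. Its log2 fold change was 0.45 ± 0.05 (edgeR adjusted p = 8.2e-06). Gga2, for an adaptor of the same route, rose by 0.15 ± 0.05 (edgeR adjusted p = 0.027), a call lost without cadmium replicate 1, cadmium replicate 2, control replicate 1 or control replicate 3 (range over its alternatives 0.018 to 0.1). Cln8, for a receptor that moves enzymes out of the endoplasmic reticulum, and Sort1, for sortilin, fell by 0.15 ± 0.05 and 0.10 ± 0.04 (edgeR adjusted p = 0.038 and 0.043). The Cln8 call was lost on leaving out any library but control replicate 1, and the Sort1 call on leaving out any 1 library (p from 0.022 to 0.15 and from 0.024 to 0.17 over their alternatives). Without cadmium replicate 1, 2 or 3, or without control replicate 2 or 3, 0 genes of this list fell, and 1 fell without control replicate 1. The number that rose was 1 without cadmium replicate 1, cadmium replicate 2 or control replicate 1.

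Among 18 tested genes of the MiT/TFE factors and their control by mTORC1, 7 fell (38.9%) and 2 rose (11.1%). Of all genes tested, 22.4% fell and 23.1% rose. Against a median log2 fold change of -0.01 for all genes tested, that of this list was -0.04. It was -0.07 without control replicate 1, -0.03 without cadmium replicate 1 and -0.03 without control replicate 3. Tfe3, the relative of Tfeb with the higher level per length, averaged 14.0 ± 0.255 FPKM in cadmium and 14.5 ± 1.01 FPKM in control libraries (log2 fold change -0.04 ± 0.06, edgeR adjusted p = 0.57). Mitf, the third relative, was at -0.44 ± 0.13 (edgeR adjusted p = 0.011) at a low level of 0.459 ± 0.0296 FPKM in cadmium and 0.625 ± 0.0897 FPKM in control libraries. Both were picked after their values were seen. Lamtor4, for a subunit of the scaffold that holds mTORC1 on the lysosome, fell by 0.25 ± 0.06 on the log2 scale (edgeR adjusted p = 0.0028), and Rragd, for a GTPase of the same machinery, by 0.19 ± 0.05 (0.0048). Lamtor3 and Rptor, for another scaffold subunit and an mTORC1 subunit, rose by 0.15 ± 0.05 and 0.13 ± 0.05 (edgeR adjusted p = 0.027 and 0.033). The Lamtor3 call was lost without cadmium replicate 1, cadmium replicate 3 or control replicate 3 (p from 0.019 to 0.085 over its alternatives). The Rptor call was lost without cadmium replicate 2, cadmium replicate 3, control replicate 1 or control replicate 3 (0.015 to 0.14). Without cadmium replicate 3 or control replicate 3, 0 genes of this list rose, and without cadmium replicate 1 or 2, 1 rose.

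**Figure D5:**
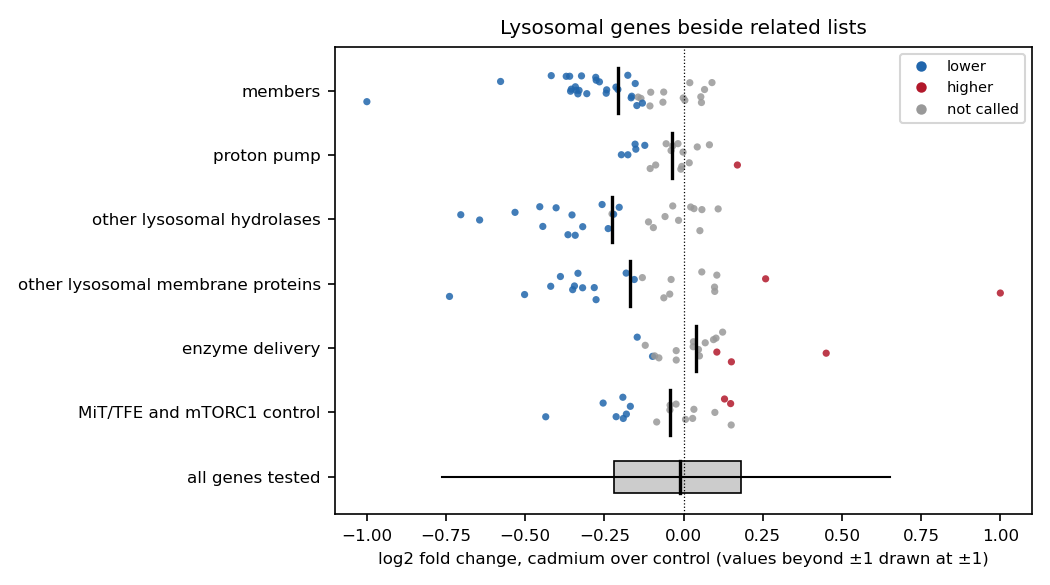
Log2 fold change of the 39 genes (the row named members) and of the genes of each related list, 1 point per gene, with a black bar at each median and values beyond ±1 drawn at ±1. The grey box of all genes tested spans the 25th to 75th percentile around -0.01 and its line the 5th to 95th percentile; the medians of the members (-0.21) and of other hydrolases (-0.23) lie left of those of the proton pump (-0.04) and enzyme delivery (0.04).

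The promoter motif was read in 34 of the 39 genes, those with an entry in the RefSeq table. CACGTG, searched on both strands and being its own reverse complement, was in the windows of 11 of the 34, or 32.4%, against 8.09% of the 27025 genes in the table. TCACGTGA, which contains it, was in 4 of the 34, or 11.8%, against 1.12% of all genes. They were Ctsa, Ctsd, Gla and Mcoln1. With a G before it and a C after it, the longer form was in 0 of the 34 and in 0.37% of all genes. Of the 11 genes with CACGTG, 6 fell, with a median log2 fold change of -0.13, and of the 23 without it 17 fell, with a median of -0.24. Of the 4 with TCACGTGA, Ctsa and Mcoln1 fell and Ctsd and Gla did not pass. A match of letters in these windows is a description and does not show binding.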

How the data were processed

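Gene levels were measured by RNA sequencing of enriched mRNA in 6 libraries, grouped by the labels. The deposited table of counts holds whole reads per gene. The deposited FPKM values equalled those counts divided by library total and gene length, to a largest relative deviation of 1.63e-08. The submitters' processing notes name the build GRCm39 and the tools HTSeq 0.11.2, DESeq2 1.22.2, HISAT2 2.1.0 and fastp 0.20.1. Their roles, the gene annotation and the strand setting are not given in the sources used here. Reads of overlapping, antisense or near-identical genes may therefore be shared.

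In R 4.3.3, edgeR 4.0.16 scaled the counts by TMM and tested cadmium against control by its robust quasi-likelihood method, two-sided, with no term besides group. The filter (filterByExpr, minimum count 10, minimum total 15) left 14369 of 25241 genes, and Benjamini-Hochberg adjustment ran over all of them, with calls at an adjusted p below 0.05. Fits were tested on simulated data. Levels are in CPM after TMM scaling, except FPKM where named. Replicates differed by more than sampling noise (chi-square per degree of freedom 3.56 to 13.6 within groups), so none was merged. The alternatives were RLE and upper-quartile scaling, other filters, DESeq2 1.42.0, log2(FPKM + 1) and log2(FPKM + 0.1) in limma 3.58.1, a replicate block, and each library left out.

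The 39 genes, the related lists, the cell type markers and the naming rule were chosen with earlier results of these data known. Values per library are given for the 2 smallest p among the genes that fell in each class, any log2 change of at least 0.5, the most abundant of each class, Tfeb and Lamp1. From each related list come up to 2 genes in each direction. Per-library values of Ctsa, Glb1, Neu1, Sgsh, Npc1, Npc2 and Mcoln1 were added after they were seen. In the lists, Ctss, Ctsk and others too low to test were left out. A few genes named by the rule and 1 of the 4 ratios are not reported here; list totals and adjustments include them. Promoters were matched by symbol.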

Additional observations from a re-analysis of the deposited data

How the results depend on the processing

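The number of the 39 lysosomal genes that fell was 26, and it lay between 25 and 28 over the alternatives in scaling, filter, tool and unit, and between 24 and 27 when any 1 library was left out. None rose in any of these fits, and the median log2 fold change stayed between -0.23 and -0.19. Deviations from the group means of same-numbered libraries correlated at 0.0234, 0.0517 and -0.0105, which gave no sign of pairing by replicate number. With 3 libraries a group, such values cannot show whether same-numbered libraries shared an animal or plating. With the replicate block 27 fell and 0 rose, and Ids passed (edgeR adjusted p = 0.022). Signs turned only for genes near 0 that passed in no fit. Sgsh was at -0.00461 under upper-quartile scaling, -0.00637 with the filter of 5 CPM, -0.00353 on log2(FPKM + 1) with or without a minimum and -0.00417 on log2(FPKM + 0.1). Lipa was at 0.00305 under RLE scaling, 0.0174 with no count filter, 0.00372 in DESeq2 and 0.000225 with the replicate block. On leaving out 1 library, Manba lay between -0.0217 and 0.119, Sgsh lay between -0.039 and 0.0542, Neu1 lay between -0.00184 and 0.0533 and Lipa lay between -0.0402 and 0.0634. The weak calls of Gusb, Lamp1 and Mcoln1, and those of the smaller lists, were lost in the settings given beside them. Of the related lists, on unfiltered log2(FPKM + 1) the proton pump had 3 lower and 0 higher, enzyme delivery 1 lower and 1 higher, MiT/TFE and mTORC1 control 3 lower and 1 higher, and other membrane proteins 1 higher. Enzyme delivery had 0 lower with no count filter and in DESeq2, and 1 lower under RLE scaling, on filtered log2(FPKM + 1) and with the replicate block. MiT/TFE and mTORC1 control had 1 higher under upper-quartile scaling and on both filtered FPKM scales. Other membrane proteins had 1 higher with the filter of 5 CPM, and other hydrolases 1 higher with no count filter. The cause of these shifts was not tested. The medians of these small lists also moved. With no count filter they were 0.0575 for enzyme delivery, -0.0184 for the proton pump and -0.0243 for MiT/TFE and mTORC1 control, and enzyme delivery was at 0.0286 with the filter of 5 CPM. On leaving out 1 library they lay between 0.0231 and 0.0501, between -0.0498 and -0.0115 and between -0.0729 and -0.0264. With 3 libraries a group, a gene of the 39 that did not pass may still have changed.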
